A study of Mus musculus with 18 samples.

Results

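RNA from GFP+ mouse embryonic stem cells (mESCs) that lack *Nprl2* was compared with RNA from GFP+ wild-type mESCs, with 2 libraries per genotype, 4 of the 18 libraries of the series. The libraries were chosen by their titles, and every gene that passed a filter on low counts entered the comparison, 13725 of 24296 genes with a transcript in the files. The study asked which genes hold mESCs in, or release them from, naive pluripotency, and compared the loss of *Nprl2* with the loss of *Tsc2*. Wild-type cells are E14 mESCs of the genotype Rex1GFPd2-Cas9, which carry Cas9 and a destabilized GFP at 1 allele of *Rex1* (listed as *Zfp42*). The *Nprl2* KO cells are Rex1GFPd2-Cas9 Nprl2-/-, made by removing an exon with a pair of gRNAs and picking clones. All 4 libraries therefore carry Cas9 and the reporter, all were sorted for GFP before RNA was isolated, and the labels do not say whether the 2 libraries of a genotype came from separate clones or cultures. If they did not, the p-values measure only technical spread. Levels are given as CPM, that is, counts divided by the scaled total of their library. Adjusted p-values of genes come from the quasi-likelihood test of edgeR, corrected over all genes tested by the Benjamini-Hochberg method. A gene is called when this value is under 0.05.

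Nprl2, Nprl3 and Depdc5 form Gator1, a complex at the lysosome that switches off the Rag GTPases when amino acids are scarce and so restrains mTORC1, the kinase complex that promotes protein synthesis and growth. Gator2 opposes Gator1, and Sestrins hold Gator2 back when leucine is low. Cells that lack amino acids, or in which mTORC1 is active, also make the transcription factor Atf4, which drives genes for amino acid synthesis, amino acid import and tRNA charging. Tfe3 and its relatives, which the folliculin and Fnip proteins help to keep out of the nucleus, drive genes of the lysosome.

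The targeted gene was lowered and not lost at the level of RNA. *Nprl2* was at 11.7 and 12.6 CPM in wild-type and 5.96 and 6.5 CPM in *Nprl2* KO, so both KO libraries lay below both wild-type libraries (log2 fold change -0.96, SE 0.18, edgeR adjusted p = 0.00888). Its RefSeq transcript is 1 sequence of 1473 bases, and counts per transcript do not show which exons were read. The other members of Gator1 were not called, with *Nprl3* at a log2 fold change of 0.27 (SE 0.16, edgeR adjusted p = 0.375) and *Depdc5* at -0.14 (SE 0.11, edgeR adjusted p = 0.518). Of the 20 tested genes nearest to *Nprl2* on chromosome 9, 10 on either side, 1 was called. This was *Gnai2*, the G protein subunit alpha i2, at 244 and 264 CPM in wild-type and 328 and 343 CPM in *Nprl2* KO (log2 fold change 0.40, SE 0.07, edgeR adjusted p = 0.0039). With 1 library left out, which leaves a genotype with a single library that is assumed to vary like the others, the call was lost for *Nprl2* without *Nprl2* KO replicate 1 (0.0555), *Nprl2* KO replicate 2 (0.0535) and for *Gnai2* without wild-type replicate 1 (0.0513), with the adjusted p in brackets.

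The libraries held 8610357 to 13299928 estimated counts, at which 3 counts, the most that a count of 0 allows, are 0.230 to 0.354 CPM. Intervals of this kind cover counting error only, since without molecular identifiers a read is not an independent molecule. The 8 mESC markers *Pou5f1*, *Sox2*, *Nanog*, *Zfp42*, *Dppa5a*, *Tdgf1*, *Utf1* and *Esrrb* summed to 4457 and 4211 CPM in wild-type and 4030 and 3693 CPM in *Nprl2* KO, and 2 of them were called lower. These were *Esrrb* (log2 fold change -0.94, SE 0.07, edgeR adjusted p = 2.87e-05) and *Zfp42*, the gene that carries the sorted reporter (log2 fold change -0.43, SE 0.06, edgeR adjusted p = 0.00168). Of 10 markers of feeder fibroblasts, on which the cells were grown, 8 were tested and none was called by edgeR (0 at an unadjusted p under 0.05) or by DESeq2, but they were present, at a sum of 388.8 and 280.2 CPM in wild-type and 304.8 and 292.7 CPM in *Nprl2* KO. The 8 primitive endoderm markers summed to 6.34 to 23.2 CPM and the 5 trophectoderm markers to 3.33 to 5.27 CPM over the 4 libraries. None of the 7 and 2 of these that were tested was called by edgeR, with 0 and 1 at an unadjusted p under 0.05, and DESeq2, which gave an adjusted p for 1 and 0 of them, called none. Longer lists of the same lineages were also examined. Of 15 tested trophectoderm genes none was called by edgeR (3 higher and 1 lower at an unadjusted p under 0.05), DESeq2 called 1 higher, and 10 had values above 0. Their sum was 154.2 and 204.9 CPM in wild-type and 193.2 and 253.3 CPM in *Nprl2* KO. Of 19 primitive endoderm genes 1 was lower, *Lamc1* (log2 fold change -0.48, SE 0.06, edgeR adjusted p = 0.000958), with a median of -0.22. In these sorted but mixed samples, fewer cells of a type and less RNA per cell cannot be told apart. Replicate 1 of *Nprl2* KO stood apart in fragment size. Its transcript length minus effective length was 227.9 bases, against 169.6 to 183.9 bases in the other GFP+ libraries. Long transcripts were called lower more often than short ones (6.74% in the longest of 5 equal length classes and 1.75% in the shortest), with median log2 fold changes of -0.07 and 0.04 in these classes, and the part of fragment size in this was not tested.

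*Nprl2* KO cells differed from wild-type in 883 of 13725 genes, 6.43%, of which 381 (2.78%) were higher and 502 (3.66%) lower. These shares are the background for every list below, and the lists were chosen with earlier results of these data known. The differences were mostly small. The median size over the called genes was 0.55 on the log2 scale and 135 of them changed by at least a factor of 2, 82 upward and 53 downward. In every called gene the KO libraries both lay above or both lay below the pair from wild-type. Of all genes tested, 25.7% had both KO libraries above and 25.2% had both below, so this separation alone is not a sign of change. The number of calls fell when a library was left out, to 548 without *Nprl2* KO replicate 1, 339 without *Nprl2* KO replicate 2, 483 without wild-type replicate 1 and 503 without wild-type replicate 2. No gene called in the fit of all libraries had the opposite sign in any of these fits.

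**Figure D1:**
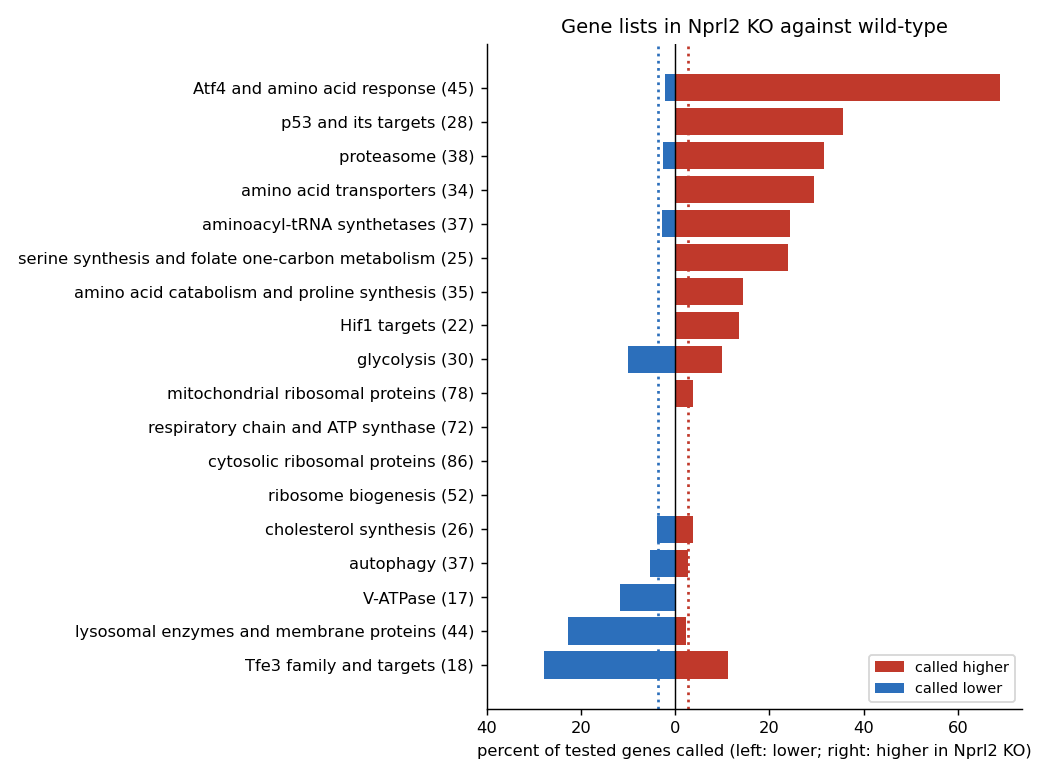
Percent of the tested genes of 18 lists that were called higher (red, right) or lower (blue, left) in *Nprl2* KO against wild-type, with the number of tested genes after each name and the shares over all 13725 genes, 2.78% and 3.66%, as dotted lines. The Atf4 list stands at 68.9% higher, and no gene of the respiratory chain, the cytosolic ribosome or ribosome biogenesis was called.

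The clearest group was the Atf4 and amino acid response, in which 31 of 45 tested genes (68.9%) were higher and 1 was lower, with a median log2 fold change of 0.70. The summed level of the list was 3611 and 3666 CPM in wild-type and 5310 and 5515 CPM in *Nprl2* KO. *Nupr1*, a stress-induced regulator of transcription, was at 2.09 and 1.56 CPM in wild-type and 11.3 and 11.9 CPM in *Nprl2* KO (log2 fold change 2.64, SE 0.22, edgeR adjusted p = 5.63e-05). *Chac1*, an enzyme that breaks down glutathione, was at 2.45 and 2.16 CPM in wild-type and 11.2 and 12.7 CPM in *Nprl2* KO (log2 fold change 2.36, SE 0.27, edgeR adjusted p = 0.000378). *Vldlr*, a receptor for lipoproteins, was at 0.636 and 0.959 CPM in wild-type and 3.5 and 4.64 CPM in *Nprl2* KO (log2 fold change 2.38, SE 0.38, edgeR adjusted p = 0.00315). In these 3 genes the KO libraries were 3 or more times as high as either wild-type library. *Slc6a9*, a glycine transporter, was at 2.45 and 3 CPM in wild-type and 10.1 and 12.5 CPM in *Nprl2* KO (log2 fold change 2.07, SE 0.23, edgeR adjusted p = 0.000267). *Pck2*, the mitochondrial phosphoenolpyruvate carboxykinase, was at 17.2 and 12.8 CPM in wild-type and 49.5 and 49.4 CPM in *Nprl2* KO (log2 fold change 1.71, SE 0.13, edgeR adjusted p = 2.87e-05). Transcripts of the transcription factors rose as well. *Atf3* was at 0.817 and 0.959 CPM in wild-type and 3.31 and 3.64 CPM in *Nprl2* KO (log2 fold change 1.97, SE 0.35, edgeR adjusted p = 0.00627), and *Atf4* itself, which the naming rule does not cover and which was added after its values were seen, was at 148 and 146 CPM in wild-type and 225 and 228 CPM in *Nprl2* KO (log2 fold change 0.62, SE 0.06, edgeR adjusted p = 0.000151).

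Some members restrain mTORC1 or growth. *Ddit4*, an inhibitor of mTORC1, was at 25.7 and 30.1 CPM in wild-type and 73.7 and 111 CPM in *Nprl2* KO (log2 fold change 1.74, SE 0.28, edgeR adjusted p = 0.03), and its KO libraries differed from each other by more than the wild-type libraries did. *Sesn2*, the leucine-binding Sestrin, was at 138 and 163 CPM in wild-type and 224 and 220.2 CPM in *Nprl2* KO (log2 fold change 0.56, SE 0.08, edgeR adjusted p = 0.00221). *Stc2*, a secreted glycoprotein, was at 1.73 and 0.479 CPM in wild-type and 4.26 and 3.64 CPM in *Nprl2* KO (log2 fold change 1.74, SE 0.42, edgeR adjusted p = 0.03). The members with the highest levels that were not called were *Asns*, asparagine synthetase, at 254 and 304 CPM in wild-type and 307 and 388 CPM in *Nprl2* KO (log2 fold change 0.32, SE 0.17, edgeR adjusted p = 0.34), *Got1* at a log2 fold change of 0.01 (SE 0.07, edgeR adjusted p = 0.962) and *Cth* at -0.08 (SE 0.24, edgeR adjusted p = 0.894). With 1 library left out the list had 25 to 27 genes called higher. The calls that were lost among the genes named here were those of *Atf3* without wild-type replicate 1 (0.054), of *Ddit4* without wild-type replicate 1 (0.231), wild-type replicate 2 (0.17) and of *Stc2* without *Nprl2* KO replicate 1 (0.132), *Nprl2* KO replicate 2 (0.0983), wild-type replicate 2 (0.13), with the adjusted p in brackets. The member that was lower, *Wars*, lies in a stretch of chromosome 12 that is described below.

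**Figure D2:**
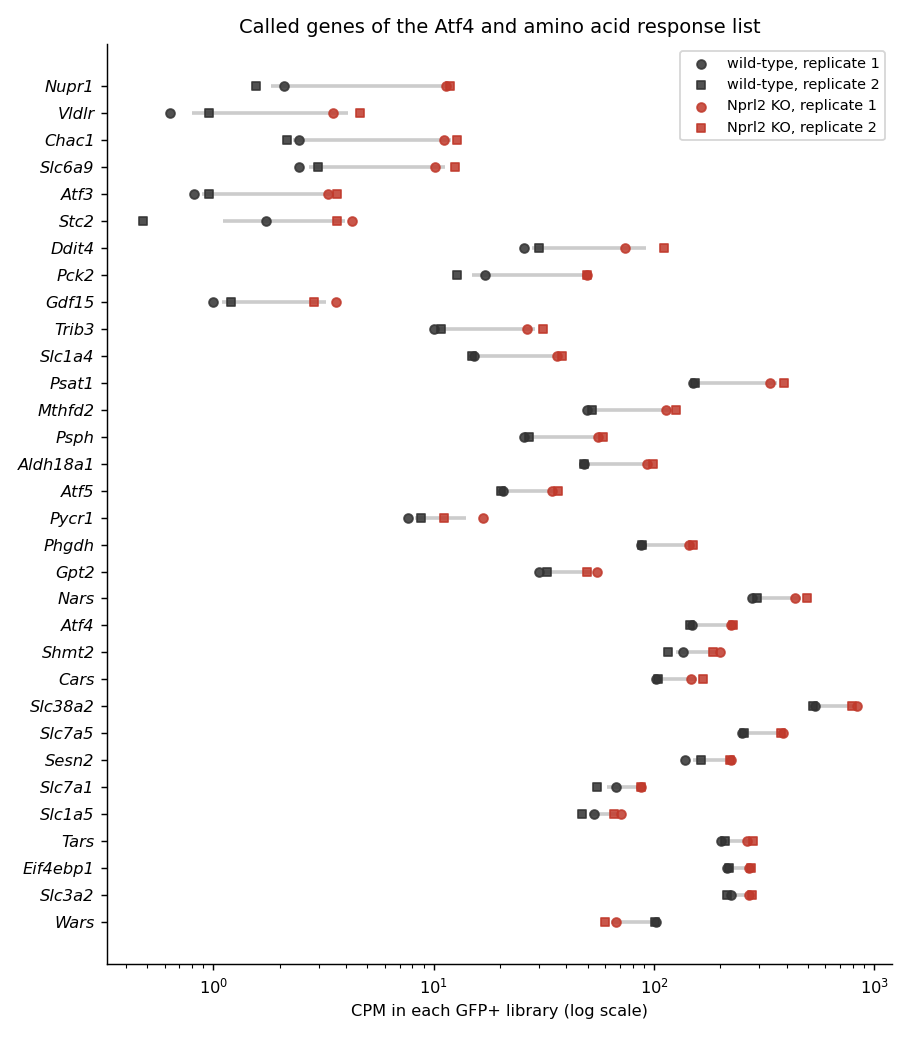
CPM on a log scale of the 32 called genes of the Atf4 and amino acid response list in the 2 wild-type (black) and 2 *Nprl2* KO (red) libraries, with circles for replicate 1, squares for replicate 2 and a grey line between the group means. The KO libraries lie to the right of the wild-type libraries in 31 genes, from *Nupr1* at the top to *Slc3a2*, and to the left in *Wars*.

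Atf4 binds, with a partner, a composite element whose core can be written TGATGCAA. The 250 bases before the start of each gene (RefSeq, GRCm38.p6) were searched for these letters on both strands. Of 10883 tested genes with a promoter in that table, 73 (0.671%) had a match. Among genes called higher it was 10 of 312 (3.21%), and among genes called lower 2 of 396 (0.505%). Of these 10, 6 belong to the Atf4 list, where they are 6 of 26 higher genes with a promoter (23.1%). The 2 shares thus overlap. That list was drawn up around Atf4, so its share is no independent support. The 6 promoters are shown for 60 bases each, with the match in capitals, because their genes are among those described here. The match reads TTGCATCA where the element lies on the opposite strand.
Nupr1, chr7:126625547-126625606, minus strand: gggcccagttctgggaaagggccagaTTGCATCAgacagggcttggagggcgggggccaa
Vldlr, chr19:27216794-27216853, plus strand: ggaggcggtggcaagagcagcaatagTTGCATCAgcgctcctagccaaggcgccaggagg
Chac1, chr2:119351023-119351082, plus strand: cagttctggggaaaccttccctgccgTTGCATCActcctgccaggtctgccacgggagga
Atf3, chr1:191183410-191183469, minus strand: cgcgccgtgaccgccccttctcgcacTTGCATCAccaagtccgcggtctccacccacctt
Pycr1, chr11:120643818-120643877, minus strand: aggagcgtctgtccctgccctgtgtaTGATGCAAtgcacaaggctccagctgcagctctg
Tars, chr15:11399659-11399718, minus strand: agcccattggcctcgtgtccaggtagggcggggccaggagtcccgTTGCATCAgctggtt
A match in these letters describes the sequence and does not show that a factor binds there.

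Enzymes that make amino acids and 1-carbon units rose at defined steps. Of 25 tested genes of serine synthesis and folate metabolism, 6 were higher, with a list median of 0.11, and 5 of the 6 are also in the Atf4 list. All 3 enzymes that lead from a glycolytic intermediate to serine were among them. *Phgdh*, the first, was at 87.3 and 88.4 CPM in wild-type and 145 and 149.9 CPM in *Nprl2* KO (log2 fold change 0.75, SE 0.08, edgeR adjusted p = 0.000169). *Psat1*, the second, was at 150.1 and 154 CPM in wild-type and 335 and 388 CPM in *Nprl2* KO (log2 fold change 1.25, SE 0.08, edgeR adjusted p = 8.94e-06). *Psph*, the last, was at 25.6 and 27 CPM in wild-type and 55.9 and 58.6 CPM in *Nprl2* KO (log2 fold change 1.12, SE 0.10, edgeR adjusted p = 6.61e-05). In the mitochondrial branch of folate metabolism the log2 fold changes were 1.23 (SE 0.09, edgeR adjusted p = 2.87e-05) for *Mthfd2*, 0.61 (SE 0.08, edgeR adjusted p = 0.00134) for *Shmt2* and 0.43 (SE 0.09, edgeR adjusted p = 0.0126) for *Mthfd1l*. The cytosolic enzyme *Mthfd1* was at 457 and 429 CPM in wild-type and 458 and 424 CPM in *Nprl2* KO and was not called (log2 fold change -0.01, SE 0.06, edgeR adjusted p = 0.974). Of 35 tested genes of other amino acid pathways 5 were higher, 3 of which the Atf4 list also holds, and some of which make proline. This count was 2 without *Nprl2* KO replicate 1 or wild-type replicate 1 and 3 without *Nprl2* KO replicate 2 or wild-type replicate 2. *Aldh18a1*, which starts that pathway, was at 48.2 and 48.3 CPM in wild-type and 92.7 and 99.4 CPM in *Nprl2* KO (log2 fold change 0.99, SE 0.09, edgeR adjusted p = 6.71e-05), and *Pycr1*, which acts at its end, had a log2 fold change of 0.76 (SE 0.21, edgeR adjusted p = 0.0484). *Gpt2*, which makes alanine in mitochondria, had a log2 fold change of 0.73 (SE 0.10, edgeR adjusted p = 0.00142). The most abundant genes of this list did not move past the threshold, such as *Odc1* at 1154 and 1131 CPM in wild-type and 1144 and 1160.1 CPM in *Nprl2* KO (log2 fold change 0.01, SE 0.06, edgeR adjusted p = 0.941). The calls of *Mthfd1l* without *Nprl2* KO replicate 1 (0.0798), *Nprl2* KO replicate 2 (0.0688), wild-type replicate 1 (0.0881) and of *Pycr1* without *Nprl2* KO replicate 1 (0.288), wild-type replicate 1 (0.244), wild-type replicate 2 (0.0965) were lost with that library left out, with the adjusted p in brackets.

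Transporters of amino acids, at the cell surface or in organelles, rose in 10 of 34 tested genes (29.4%), 7 of which the Atf4 list also holds. *Slc38a2*, which takes up small neutral amino acids, was at 541 and 526 CPM in wild-type and 833 and 793 CPM in *Nprl2* KO (log2 fold change 0.61, SE 0.06, edgeR adjusted p = 0.000142). *Slc7a5*, the leucine transporter, was at 252 and 256 CPM in wild-type and 384 and 377 CPM in *Nprl2* KO (log2 fold change 0.59, SE 0.06, edgeR adjusted p = 0.000169), and its partner *Slc3a2*, added outside the naming rule, had a log2 fold change of 0.32 (SE 0.06, edgeR adjusted p = 0.00974), a call that was lost without *Nprl2* KO replicate 2 (0.0642), wild-type replicate 1 (0.0513) or wild-type replicate 2 (0.0771). *Slc1a4*, which carries serine and other neutral amino acids, was at 15.2 and 15 CPM in wild-type and 36.2 and 38.3 CPM in *Nprl2* KO (log2 fold change 1.31, SE 0.12, edgeR adjusted p = 6.71e-05). *Slc7a1*, which imports arginine and lysine, had a log2 fold change of 0.51 (SE 0.09, edgeR adjusted p = 0.0067). The cystine transporter *Slc7a11*, a known Atf4 target that was also added outside the rule, was at 12.4 and 13.5 CPM in wild-type and 5.86 and 14.6 CPM in *Nprl2* KO and was not called (log2 fold change -0.31, SE 0.39, edgeR adjusted p = 0.718). With *Nprl2* KO replicate 2 left out it was called lower, opposite to the transporters that rose. The count of transporters was 5 without *Nprl2* KO replicate 2 or without wild-type replicate 2. Among enzymes that charge tRNAs, 9 of 37 were higher, 1 was lower and the list median was 0.10. The Atf4 list also holds 3 of the 9. The largest rises were those of *Nars* for asparagine, at 277 and 294 CPM in wild-type and 437 and 493 CPM in *Nprl2* KO (log2 fold change 0.70, SE 0.07, edgeR adjusted p = 0.000169), and *Cars* for cysteine, at 102 and 104 CPM in wild-type and 147 and 167 CPM in *Nprl2* KO (log2 fold change 0.61, SE 0.08, edgeR adjusted p = 0.00062). *Wars*, for tryptophan, was at 102 and 101 CPM in wild-type and 67.2 and 60.1 CPM in *Nprl2* KO (log2 fold change -0.68, SE 0.08, edgeR adjusted p = 0.000634), and *Eprs* and *Kars*, with higher levels than most, were not called, with log2 fold changes of 0.12 (SE 0.07, edgeR adjusted p = 0.342) and 0.07 (SE 0.06, edgeR adjusted p = 0.568).

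A set of lysosomal genes fell. Of 44 tested lysosomal enzymes and membrane proteins, 10 (22.7%) were lower and 1 was higher, the median log2 fold change was -0.30, and 35 of the 44 values were below 0. The summed level was 2362 and 2667 CPM in wild-type and 1964 and 2094 CPM in *Nprl2* KO. *Hexa*, which encodes a subunit of an enzyme that breaks down gangliosides, was at 38.4 and 47.1 CPM in wild-type and 25.3 and 25.7 CPM in *Nprl2* KO (log2 fold change -0.74, SE 0.13, edgeR adjusted p = 0.00511). *Manba*, beta-mannosidase, was at 88.9 and 79.8 CPM in wild-type and 52.2 and 42.3 CPM in *Nprl2* KO (log2 fold change -0.84, SE 0.11, edgeR adjusted p = 0.00151). *Lamp1*, an abundant membrane protein of the lysosome, was at 379.9 and 435 CPM in wild-type and 290.1 and 296 CPM in *Nprl2* KO (log2 fold change -0.47, SE 0.08, edgeR adjusted p = 0.00635). Further calls were the proteases *Lgmn*, *Tpp1* and *Ctsa*, with log2 fold changes of -0.85 (SE 0.13, edgeR adjusted p = 0.00222), -0.55 (SE 0.10, edgeR adjusted p = 0.00833) and -0.50 (SE 0.11, edgeR adjusted p = 0.0171), and the thioesterase *Ppt1* at -0.46 (SE 0.11, edgeR adjusted p = 0.03). *Lgmn* lies in the stretch of chromosome 12 described below, and without it 9 of 43 were lower. The gene that rose was *Man2b1*, an alpha-mannosidase, named after its value was seen (log2 fold change 0.39, SE 0.10, edgeR adjusted p = 0.0399). *Ctsd*, the list's most abundant gene that was not called, was at 196 and 219 CPM in wild-type and 193 and 198 CPM in *Nprl2* KO (log2 fold change -0.09, SE 0.08, edgeR adjusted p = 0.566). The count of lower genes was 6 without *Nprl2* KO replicate 1, 5 without *Nprl2* KO replicate 2 and 5 without wild-type replicate 2. The calls of *Tpp1* without *Nprl2* KO replicate 1 (0.0543), wild-type replicate 2 (0.0609), of *Ctsa* without *Nprl2* KO replicate 1 (0.0865), *Nprl2* KO replicate 2 (0.0885), wild-type replicate 2 (0.119), of *Lamp1* without *Nprl2* KO replicate 2 (0.0537), of *Ppt1* without *Nprl2* KO replicate 1 (0.134), *Nprl2* KO replicate 2 (0.0945), wild-type replicate 2 (0.192) and of *Man2b1* without *Nprl2* KO replicate 1 (0.12), *Nprl2* KO replicate 2 (0.166), wild-type replicate 1 (0.216), wild-type replicate 2 (0.0729) were lost there, with the adjusted p in brackets.

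The proton pump of the lysosome and the genes around Tfe3 gave similar signs. For the V-ATPase, 2 of 17 tested genes were lower, with a median of -0.17. This count was 0 without *Nprl2* KO replicate 1 or wild-type replicate 2, and 1 without *Nprl2* KO replicate 2. The genes were *Atp6ap2*, an accessory subunit, at 58.9 and 67.8 CPM in wild-type and 39.4 and 48.7 CPM in *Nprl2* KO (log2 fold change -0.52, SE 0.11, edgeR adjusted p = 0.0163), and *Atp6v0d1*, a subunit of the membrane sector, at a log2 fold change of -0.45 (SE 0.10, edgeR adjusted p = 0.0165). Of 18 genes of the Tfe3 family and its targets, 5 were lower and 2 higher, with a median of -0.38. The lower ones numbered 3 without either *Nprl2* KO library, and the higher ones 1 without any of the 4 libraries. *Amdhd2*, an enzyme of amino sugar metabolism, was at 15.6 and 17.4 CPM in wild-type and 8.89 and 8.28 CPM in *Nprl2* KO (log2 fold change -0.94, SE 0.15, edgeR adjusted p = 0.00378). *Uap1l1* was at 18.9 and 35.8 CPM in wild-type and 6.72 and 7.58 CPM in *Nprl2* KO (log2 fold change -1.91, SE 0.36, edgeR adjusted p = 0.045), with wild-type libraries far from each other but both above the KO libraries. *Fnip1* and *Fnip2*, the partners of folliculin, had log2 fold changes of -0.73 (SE 0.16, edgeR adjusted p = 0.032) and -0.56 (SE 0.10, edgeR adjusted p = 0.00635). The members that rose were *Sqstm1*, an autophagy receptor, at 195 and 196 CPM in wild-type and 262 and 269 CPM in *Nprl2* KO (log2 fold change 0.44, SE 0.08, edgeR adjusted p = 0.00522), and *Gdf15*, a secreted factor that the Atf4 list also holds, at 0.999 and 1.2 CPM in wild-type and 3.59 and 2.86 CPM in *Nprl2* KO (log2 fold change 1.55, SE 0.37, edgeR adjusted p = 0.0278). *Tfe3* itself was at 146 and 151 CPM in wild-type and 185 and 167 CPM in *Nprl2* KO and was not called (log2 fold change 0.25, SE 0.07, edgeR adjusted p = 0.0646). Of 37 autophagy genes 2 were lower and 1 higher, and of 29 genes of the Rag, Lamtor, folliculin and mTORC1 group 3 were lower and 1 higher. These lower counts were both 1 without *Nprl2* KO replicate 2 or wild-type replicate 2. Calls were lost for *Atp6ap2* without *Nprl2* KO replicate 1 (0.092), wild-type replicate 2 (0.0958); *Atp6v0d1* without *Nprl2* KO replicate 1 (0.0858), *Nprl2* KO replicate 2 (0.0663), wild-type replicate 2 (0.117); *Uap1l1* without *Nprl2* KO replicate 1 (0.205), *Nprl2* KO replicate 2 (0.23); *Fnip1* without *Nprl2* KO replicate 1 (0.098), wild-type replicate 2 (0.0802); *Fnip2* without *Nprl2* KO replicate 2 (0.0663); *Gdf15* without *Nprl2* KO replicate 1 (0.129), *Nprl2* KO replicate 2 (0.0733), wild-type replicate 1 (0.166), wild-type replicate 2 (0.0775), with the adjusted p in brackets.

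*Tsc2* KO cells (Rex1GFPd2-Cas9 Tsc2-/-), whose 2 libraries were sorted alike, share the wild-type libraries, so their fold changes are given side by side and the difference was tested between the KOs directly. Against wild-type, lysosomal genes in *Tsc2* KO had 24 of 44 higher and a median of 0.38, where *Nprl2* KO had 1 higher and 10 lower. *Hexa* stood at 70.2 and 83.2 CPM in *Tsc2* KO, above both wild-type libraries, and the log2 difference between *Nprl2* KO and *Tsc2* KO was -1.59 (SE 0.12, edgeR adjusted p = 1.82e-06). In that direct comparison, added after the data were seen, 31 of 44 lysosomal genes were lower and 1 was higher in *Nprl2* KO, 15 of 17 V-ATPase genes were lower, and 12 of 18 genes of the Tfe3 list were lower and 1 higher. Over all genes 17.5% were lower and 16.6% higher in *Nprl2* KO. For the Atf4 list, *Tsc2* KO had 28 higher and 2 lower genes and a median of 0.61 against wild-type, beside 31 higher and 1 lower and 0.70 in *Nprl2* KO. Over all genes *Tsc2* KO had 14.9% higher and 14.2% lower. The direct comparison gave 19 of these 45 genes higher in *Nprl2* KO and 3 lower. *Ddit4*, at 28 and 39.6 CPM in *Tsc2* KO, differed by 1.45 (SE 0.26, edgeR adjusted p = 0.0116), and *Slc38a2*, at 352 and 365 CPM, by 1.18 (SE 0.06, edgeR adjusted p = 1.04e-07), whereas *Nupr1*, at 10.3 and 10.9 CPM, differed by 0.14 (SE 0.17, edgeR adjusted p = 0.578).

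**Figure D3:**
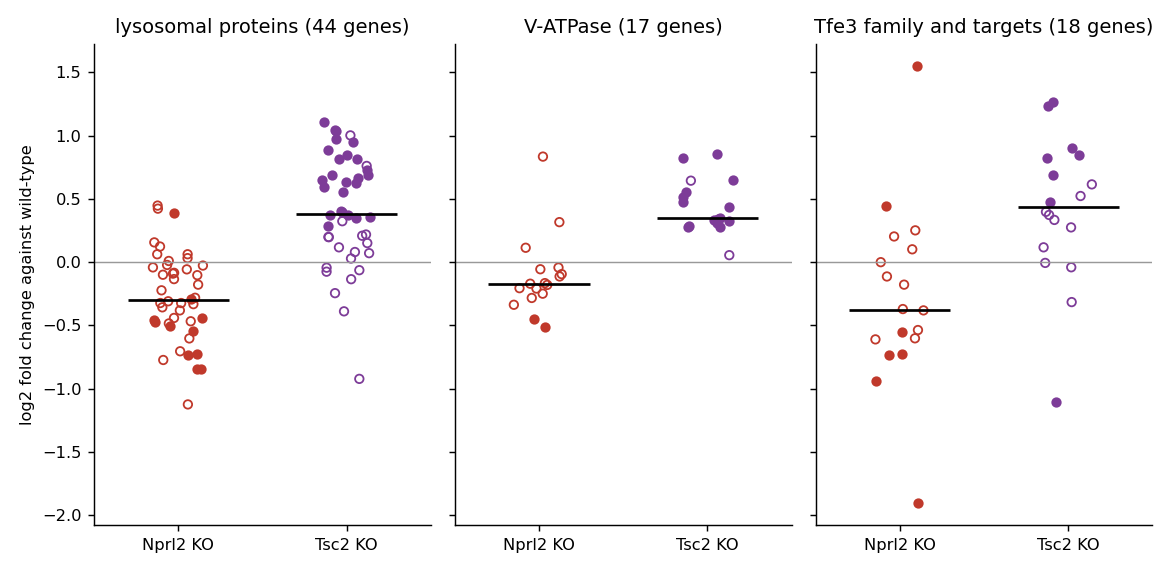
Log2 fold change against wild-type of the genes of 3 lists in *Nprl2* KO (red) and *Tsc2* KO (purple), with 1 point per gene, filled where called and open where not, and the list median as a black line. Medians in *Nprl2* KO are below 0 (-0.30, -0.17 and -0.38) and those in *Tsc2* KO above 0 (0.38, 0.35 and 0.44), measured against the same wild-type libraries.

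Promoters of genes lower in *Nprl2* KO were searched in the same way for TCACGTGA, a form of the element that Tfe3 and related factors bind, which reads the same on both strands. A match was found in 185 of 10883 tested genes (1.70%), in 17 of 396 genes called lower (4.29%) and in 1 of 312 called higher (0.321%). Of the 8 lower lysosomal genes with a promoter in that set, *Ctsa* alone had a match. The promoters of *Ctsa*, of *Amdhd2* and of *Crebrf*, which has the second largest fall among the 17, are shown with the match in capitals. *Crebrf* was chosen after its value was seen (log2 fold change -0.89, SE 0.17, edgeR adjusted p = 0.00896), and its call was lost without *Nprl2* KO replicate 1 (0.0516), *Nprl2* KO replicate 2 (0.0721) or wild-type replicate 2 (0.0618).
Ctsa, chr2:164833713-164833772, plus strand: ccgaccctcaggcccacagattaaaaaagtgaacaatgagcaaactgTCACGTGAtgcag
Amdhd2, chr17:24163734-24163793, minus strand: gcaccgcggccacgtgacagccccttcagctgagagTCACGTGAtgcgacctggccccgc
Crebrf, chr17:26715498-26715557, plus strand: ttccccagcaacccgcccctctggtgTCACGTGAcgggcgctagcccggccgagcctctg

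Targets of p53, the transcription factor of the DNA damage response, were higher in 10 of 28 tested genes (35.7%), with a median log2 fold change of 0.37. *Trp53* itself was at 477 and 457 CPM in wild-type and 482 and 467 CPM in *Nprl2* KO and was not called (log2 fold change 0.02, SE 0.06, edgeR adjusted p = 0.877). *Perp*, a membrane protein of cell death and adhesion, was at 13.7 and 18.1 CPM in wild-type and 34 and 39 CPM in *Nprl2* KO (log2 fold change 1.21, SE 0.15, edgeR adjusted p = 0.000755). *Mdm2*, the ligase that removes p53, was at 154 and 186 CPM in wild-type and 274 and 318 CPM in *Nprl2* KO (log2 fold change 0.81, SE 0.10, edgeR adjusted p = 0.00149). *Btg2*, an antiproliferative gene, was at 30.4 and 34.8 CPM in wild-type and 52.3 and 62.6 CPM in *Nprl2* KO (log2 fold change 0.82, SE 0.15, edgeR adjusted p = 0.014), and *Bbc3*, which promotes apoptosis, had a log2 fold change of 0.55 (SE 0.11, edgeR adjusted p = 0.0122). *Sesn2* stands in this list and in that of Atf4. *Ccng1* and *Trp53inp1*, abundant targets, were not called. *Ccng1* was at 307 and 380.5 CPM in wild-type and 397 and 489 CPM in *Nprl2* KO (log2 fold change 0.37, SE 0.14, edgeR adjusted p = 0.192), so the libraries of the genotypes did not overlap but differed widely within each genotype. The count of called targets was 3 without wild-type replicate 1 and 5 without *Nprl2* KO replicate 2. The calls of *Btg2* without *Nprl2* KO replicate 2 (0.0841), wild-type replicate 1 (0.102) and of *Bbc3* without *Nprl2* KO replicate 1 (0.0956), wild-type replicate 1 (0.0792) were lost there, with the adjusted p in brackets.

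Part of the proteasome rose by a small amount. Of 38 tested genes 12 (31.6%) were higher, by 0.25 to 0.40 on the log2 scale, 32 had values above 0, and the median was 0.19. The summed level was 7275 and 7202 CPM in wild-type and 8062 and 8441 CPM in *Nprl2* KO. *Psmb6*, a catalytic subunit, was at 211 and 217 CPM in wild-type and 273 and 290.0 CPM in *Nprl2* KO (log2 fold change 0.40, SE 0.06, edgeR adjusted p = 0.00315). *Psmc1*, the member that was lower, is in the stretch of chromosome 12 (log2 fold change -0.36, SE 0.07, edgeR adjusted p = 0.00696). These rises were near the limit of the test. DESeq2, which called 6.3% of all genes it tested, called 7 of the list higher, and 6, 3, 3 and 2 were called without *Nprl2* KO replicate 1, *Nprl2* KO replicate 2, wild-type replicate 1 and wild-type replicate 2. Genes of iron and redox handling were higher in 5 of 31, and in 3 without wild-type replicate 2. *Slc40a1*, the iron exporter, was at 9.63 and 9.23 CPM in wild-type and 20.7 and 19.1 CPM in *Nprl2* KO (log2 fold change 1.07, SE 0.17, edgeR adjusted p = 0.003). *Prdx6*, a peroxiredoxin, was at 415 and 442 CPM in wild-type and 572 and 602 CPM in *Nprl2* KO (log2 fold change 0.46, SE 0.06, edgeR adjusted p = 0.00125). Among chaperones and genes of the unfolded protein response 2 of 30 were higher and 1, *Hsp90aa1* of chromosome 12, was lower. The 2 were the heat shock genes *Hspa1a* and *Hspa1b*, with log2 fold changes of 0.92 (SE 0.20, edgeR adjusted p = 0.0187) and 0.63 (SE 0.17, edgeR adjusted p = 0.0427), which are near-identical copies between which kallisto divides reads. DESeq2 called neither, and edgeR's call was lost for *Hspa1a* without *Nprl2* KO replicate 1 (0.111), *Nprl2* KO replicate 2 (0.0616), wild-type replicate 2 (0.111) and for *Hspa1b* without *Nprl2* KO replicate 2 (0.27), wild-type replicate 1 (0.253), wild-type replicate 2 (0.0619).

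Several large machineries linked to growth showed no gene called by edgeR. These were 86 cytosolic ribosomal proteins (median log2 fold change -0.04), 52 genes of ribosome biogenesis (0.04) and 72 nuclear genes of the respiratory chain and ATP synthase (-0.0036). Of the 86 values of cytosolic ribosomal proteins, 61 were below 0. In the 8 alternative fits that keep all 4 libraries, up to 4 of these proteins were called higher and up to 5 lower. At an unadjusted p under 0.05 the lists had 8, 4 and 10 genes, and DESeq2 called 1, 0 and 0. Their most abundant members were *Rpl4* at 2506 and 2646 CPM in wild-type and 2344 and 2452 CPM in *Nprl2* KO, *Npm1* at 3574 and 3664 CPM in wild-type and 3809 and 4185 CPM in *Nprl2* KO and *Atp5b* at 1877 and 1890.0 CPM in wild-type and 1886 and 1931 CPM in *Nprl2* KO. Of 78 mitochondrial ribosomal proteins 3 were higher (3.85%, against 2.78% of all genes), none of which DESeq2 called, and 0 or 1 with a library left out. Cholesterol synthesis had 1 higher and 1 lower of 26, and fatty acid synthesis 1 higher of 22. Of 28 genes of the pentose phosphate pathway and nucleotide synthesis 5 were higher (17.9%) and 0 lower, and DESeq2 called 2 higher. In the glycolysis list 3 were higher and 3 lower of 30 (2 and 3 with DESeq2). Both lists had fewer calls when some single libraries were left out. *Ldha*, which makes lactate, was at 321 and 307 CPM in wild-type and 477 and 514 CPM in *Nprl2* KO (log2 fold change 0.66, SE 0.06, edgeR adjusted p = 0.000121), while *Ldhb* had a log2 fold change of -0.44 (SE 0.10, edgeR adjusted p = 0.03). *Slc2a3*, a glucose transporter, was at 810.3 and 932 CPM in wild-type and 603 and 643 CPM in *Nprl2* KO (log2 fold change -0.48, SE 0.09, edgeR adjusted p = 0.00763), and *Pdha1*, of pyruvate dehydrogenase, had a log2 fold change of -0.45 (SE 0.07, edgeR adjusted p = 0.00228). Of 22 Hif1 targets 3 were higher, *Ldha*, *Ddit4* and *Vegfa*, an angiogenic factor (log2 fold change 0.87, SE 0.17, edgeR adjusted p = 0.00917). Calls were lost for *Ldhb* without *Nprl2* KO replicate 1 (0.151), *Nprl2* KO replicate 2 (0.117), wild-type replicate 2 (0.121); *Slc2a3* without *Nprl2* KO replicate 1 (0.0555); *Vegfa* without *Nprl2* KO replicate 2 (0.0649), wild-type replicate 1 (0.0554), with the adjusted p in brackets.

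The signalling lists are set beside 2.78% higher and 3.66% lower over all genes. Insulin, Akt and FoxO had 8.82% higher and 11.8% lower, and Nodal and activin 7.14% and 10.7%. ERK had 2.86% and 8.57%, Wnt 2.38% and 7.14%, and BMP and Id 0% and 4.76%. The shares rest on small numbers of called genes. Of these, *Wnt8a*, a Wnt ligand, was at 5.9 and 5.39 CPM in wild-type and 12 and 19 CPM in *Nprl2* KO (log2 fold change 1.46, SE 0.23, edgeR adjusted p = 0.00351), and *Sfrp1*, an inhibitor that binds Wnts, was at 37.8 and 33.6 CPM in wild-type and 18.6 and 14.9 CPM in *Nprl2* KO (log2 fold change -1.10, SE 0.13, edgeR adjusted p = 0.000371), 2 of the 4 calls among 42 Wnt genes. *Nodal*, a ligand of the TGF-beta family, was at 94.6 and 100.4 CPM in wild-type and 139.6 and 162 CPM in *Nprl2* KO (log2 fold change 0.63, SE 0.09, edgeR adjusted p = 0.00168). Its list had 2 higher and 3 lower genes of 28. *Id3*, a BMP-responsive repressor, was at 32.8 and 32.7 CPM in wild-type and 15.9 and 21.1 CPM in *Nprl2* KO (log2 fold change -0.82, SE 0.15, edgeR adjusted p = 0.00666), the single call among 21 BMP and Id genes. *Spred1*, an inhibitor of ERK signalling, was lower with a log2 fold change of -0.86 (SE 0.10, edgeR adjusted p = 0.000787), 1 of 3 lower and 1 higher among 35 ERK genes. In the insulin, Akt and FoxO group 3 were higher and 4 lower of 34, among them *Sgk3*, a kinase related to Akt, at 24.2 and 26.2 CPM in wild-type and 16.1 and 15.4 CPM in *Nprl2* KO (log2 fold change -0.68, SE 0.12, edgeR adjusted p = 0.00705), and *Pik3r3*, a regulatory subunit of PI3K, at a log2 fold change of 0.75 (SE 0.15, edgeR adjusted p = 0.0128). The 4 lower genes of the insulin group were 0 without *Nprl2* KO replicate 2 and 1 without *Nprl2* KO replicate 1 or wild-type replicate 2, and the 3 lower genes of the Wnt, Nodal and ERK lists were 1 each without *Nprl2* KO replicate 2. Calls were lost for *Wnt8a* without *Nprl2* KO replicate 2 (0.0535); *Sgk3* without *Nprl2* KO replicate 2 (0.063); *Pik3r3* without *Nprl2* KO replicate 2 (0.108), wild-type replicate 1 (0.0703), with the adjusted p in brackets.

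Lists of germline and early embryonic genes held small numbers of calls, at shares above those of all genes in several lists. Germline genes were 6.25% higher and 9.4% lower, beside 2.78% and 3.66% of all genes. Genes of the 2-cell-like state were 9.52% higher and 0% lower. Of 32 tested germline genes 2 were higher and 3 lower, with a median log2 fold change of -0.10. The higher ones were *Hormad2* at 1.28 (SE 0.32, edgeR adjusted p = 0.0355) and *Tdrd12*, and the lower ones *Smc1b* at -1.02 (SE 0.23, edgeR adjusted p = 0.0215), *Sohlh2* at -0.85 (SE 0.20, edgeR adjusted p = 0.0269) and *Zfp42*. Calls were lost for *Hormad2* without *Nprl2* KO replicate 2 (0.244), wild-type replicate 1 (0.147), wild-type replicate 2 (0.114); *Smc1b* without *Nprl2* KO replicate 2 (0.157), wild-type replicate 1 (0.115), wild-type replicate 2 (0.052); *Sohlh2* without *Nprl2* KO replicate 1 (0.0789), *Nprl2* KO replicate 2 (0.176), wild-type replicate 1 (0.221), with the adjusted p in brackets. Of 21 genes of the 2-cell-like state 2 were higher, with a median of 0.35. DESeq2 called none of these 21, and edgeR called 7 without wild-type replicate 1, neither of the 2 among them, and 0 without any other library. Of 23 tested genes of the Pramel, Oog, Nlrp and Obox families 4 were higher (17.4%), and 2 without *Nprl2* KO replicate 2 or wild-type replicate 2. *Nlrp9b* was at 12.4 and 12 CPM in wild-type and 23.2 and 25.5 CPM in *Nprl2* KO (log2 fold change 1.00, SE 0.15, edgeR adjusted p = 0.0022) and *Pramel19* at 17.5 and 12 CPM in wild-type and 28.2 and 27.6 CPM in *Nprl2* KO (log2 fold change 0.90, SE 0.16, edgeR adjusted p = 0.00662). These are multigene families with similar sequences, so counts can be shared between copies. *Rhox5*, of the X-linked Rhox cluster, was at 9.63 and 8.75 CPM in wild-type and 21.8 and 17.1 CPM in *Nprl2* KO (log2 fold change 1.07, SE 0.17, edgeR adjusted p = 0.00319). *Tex19.1* was at 129.7 and 129 CPM in wild-type and 215 and 224 CPM in *Nprl2* KO (log2 fold change 0.76, SE 0.07, edgeR adjusted p = 0.000107), and *Tdrd12*, a gene of the piRNA pathway, had a log2 fold change of 0.89 (SE 0.13, edgeR adjusted p = 0.00221). *Neurod1*, a neuronal transcription factor, was at 7.08 and 7.55 CPM in wild-type and 18.1 and 15.5 CPM in *Nprl2* KO (log2 fold change 1.20, SE 0.17, edgeR adjusted p = 0.00185). It was 1 of 2 higher genes among 13 tested early neural genes (15.4%), whose median was 0.16, with 9 values above 0 and 4 below. Among imprinted genes outside the Dlk1-Dio3 cluster 2 of 47 were higher and 4 lower, with *Mest* at 160.3 and 147 CPM in wild-type and 96.9 and 87.8 CPM in *Nprl2* KO (log2 fold change -0.74, SE 0.08, edgeR adjusted p = 0.000346) and *Snrpn* at a log2 fold change of 0.54 (SE 0.08, edgeR adjusted p = 0.00149). All 4 tested genes of the Y chromosome had values above 0 and 3 were called (1 without *Nprl2* KO replicate 2 or wild-type replicate 1, and 1 by DESeq2), the most abundant being *Eif2s3y* at 80.2 and 87 CPM in wild-type and 121 and 115 CPM in *Nprl2* KO (log2 fold change 0.50, SE 0.08, edgeR adjusted p = 0.0047). In *Tsc2* KO, against the same wild-type libraries, 3 of these 4 Y genes were also called higher. Their median log2 fold change was 0.42 there and 0.41 in *Nprl2* KO, so this rise is not particular to *Nprl2* KO. Keratins had a median of 0.85 with none of 8 called by edgeR, 3 at an unadjusted p under 0.05 and 1 called by DESeq2. *Krt18*, of simple epithelia, was at 7.36 and 11.5 CPM in wild-type and 22.7 and 32.3 CPM in *Nprl2* KO (log2 fold change 1.58, SE 0.34, edgeR adjusted p = 0.0544), and its genotypes did not overlap. Zinc finger genes named Zfp, the largest family examined, had 5 higher and 10 lower of 364, and 1 or 2 higher with a library left out.

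Outside the lists, the largest rise among genes whose mean log2 CPM was 1 or more was in *Efhc2*, a gene with calcium-binding EF-hand motifs, at 2.82 and 2.64 CPM in wild-type and 11.7 and 15.3 CPM in *Nprl2* KO (log2 fold change 2.31, SE 0.23, edgeR adjusted p = 0.00015). *Psors1c2* was at 1.73 and 2.16 CPM in wild-type and 7 and 6.42 CPM in *Nprl2* KO (log2 fold change 1.80, SE 0.31, edgeR adjusted p = 0.00511). The largest falls outside chromosome 12 included *Trpm1*, a cation channel, which had 8 and 12 counts in wild-type and 0 in both KO libraries, at least 8.09-fold lower with 3 counts over the KO group as the floor. The filter on low counts and the mean log2 CPM were taken over all 6 GFP+ libraries. At these low counts *Trpm1* passed them only with its level in *Tsc2* KO, so its place among the largest falls is no separate support. *Patl2*, an RNA-binding protein of oocytes, was at 7.72 and 10.3 CPM in wild-type and 2.55 and 2.17 CPM in *Nprl2* KO (log2 fold change -1.92, SE 0.23, edgeR adjusted p = 0.000507). *Tgfbi*, a matrix protein induced by TGF-beta, was at 8.99 and 5.27 CPM in wild-type and 2.36 and 1.93 CPM in *Nprl2* KO (log2 fold change -1.77, SE 0.30, edgeR adjusted p = 0.0077). In *Tsc2* KO these 2 genes stood on the other side of wild-type, at 27.3 and 32.2 CPM and 49.7 and 39.8 CPM. Calls were lost for *Trpm1* without *Nprl2* KO replicate 1 (0.0635), *Nprl2* KO replicate 2 (0.0953), wild-type replicate 2 (0.0637) and for *Tgfbi* without *Nprl2* KO replicate 2 (0.0905), with the adjusted p in brackets.

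The most regular pattern by position was a fall over the end of chromosome 12, found after the values were seen and given as a description. From *Galc* (start 98202287 in GRCm38) to the last tested gene, *Abcb5* (end 118966434), 123 genes were tested. Of these 75 (61.0%) were lower and none was higher (edgeR, with none at an unadjusted p under 0.05, and none with DESeq2), 114 had values below 0, and the median log2 fold change was -0.70, with quartiles of -0.88 and -0.46. In the other 354 tested genes of the chromosome, up to *Flrt2*, the median was 0.02 and 15 (4.24%) were lower. The limit between them is the split of the gene order with the smallest summed deviation from the medians of its sides. Over windows of 25 consecutive genes the median reached -0.82 on chromosome 12 and stayed between -0.29 and 0.29 on all other chromosomes. The well-measured genes shared 1 sign. Of the 76 genes whose mean log2 CPM was 3 or more, all 76 had values below 0 and 66 were called lower. *Hsp90aa1*, a chaperone and the most abundant gene of this stretch, was at 4361 and 4046 CPM in wild-type and 2254 and 2134 CPM in *Nprl2* KO (log2 fold change -0.94, SE 0.07, edgeR adjusted p = 2.73e-05). *Eif5*, a translation initiation factor, was at 419 and 403 CPM in wild-type and 255 and 285 CPM in *Nprl2* KO (log2 fold change -0.61, SE 0.07, edgeR adjusted p = 0.000371), and *Atg2b*, an autophagy gene, at 58.5 and 65.8 CPM in wild-type and 32.9 and 36.6 CPM in *Nprl2* KO (log2 fold change -0.83, SE 0.10, edgeR adjusted p = 0.000634). *Dicer1* and *Yy1*, which process small RNAs and regulate transcription and were added outside the naming rule, had log2 fold changes of -0.88 (SE 0.08, edgeR adjusted p = 8e-05) and -0.74 (SE 0.08, edgeR adjusted p = 0.000175).

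The same stretch was low in *Tsc2* KO, with a median of -0.75 against the same wild-type libraries. Measured instead against the day 0 libraries of the differentiation series, which are independent of these 6, the median over the 76 genes stood at -0.06 and -0.02 for wild-type. For *Nprl2* KO it stood at -0.81 and -0.77, and for *Tsc2* KO at -0.80 and -0.81. The 12 libraries of days 0 to 3 lay between -0.11 and 0.17. All 4 KO libraries thus stood apart from the 2 wild-type libraries and from the 12 others, while the rest of the chromosome lay between -0.09 and 0.07 in all 18. DNA copy number was not measured and the cause was not tested. The Dlk1-Dio3 imprinted cluster lies inside this stretch, and its RNA genes *Rian* and *Mirg* fell further than most of the stretch. *Rian* had 2359 and 1540 counts in wild-type and 56 and 123 in *Nprl2* KO (log2 fold change -4.72, SE 0.55, edgeR adjusted p = 0.034). *Mirg* had 102 and 68 counts in wild-type and 1 and 3 in *Nprl2* KO (edgeR adjusted p = 2.87e-05). *Meg3* was at 136 and 135 CPM in wild-type and 11.1 and 10.6 CPM in *Nprl2* KO and just missed the threshold (log2 fold change -3.64, SE 0.52, edgeR adjusted p = 0.0512). The call of *Rian* was lost with any of the 4 libraries left out, at an adjusted p between 0.153 and 0.184. These falls were shared by *Tsc2* KO. There the log2 fold changes were -4.87 for *Rian*, -5.44 for *Mirg* and -3.89 for *Meg3* (edgeR adjusted p of 0.00967, 3.01e-06 and 0.0148). Of the 6 tested genes of the cluster, 4 were lower and 1 was higher in *Tsc2* KO. Without the 123 genes the comparison of *Nprl2* KO with wild-type held 381 higher (2.80%) and 427 lower genes (3.14%) of 13602. Leaving these genes out removes only changes inside the stretch. Both KO genotypes carry the fall and wild-type does not. Whether changes elsewhere, such as those of the Atf4 list that *Tsc2* KO shares, go with the lost gene, the clone or this fall was not tested.

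**Figure D4:**
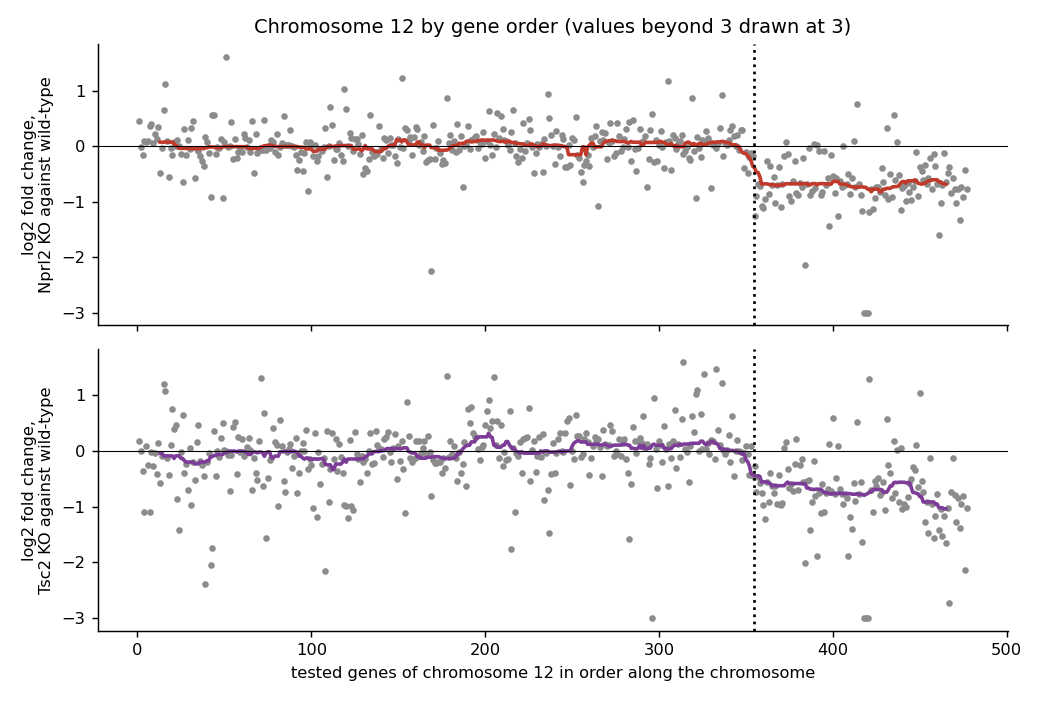
Log2 fold change against wild-type of the 477 tested genes of chromosome 12 in their order along it, for *Nprl2* KO (top) and *Tsc2* KO (bottom), with 1 grey point per gene, the running median over 25 genes as a line, and the limit of the described stretch as a dotted line. Right of that line the running median drops to about the level of the stretch, -0.70 in *Nprl2* KO and -0.75 in *Tsc2* KO.

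The genes that changed in *Nprl2* KO were also followed on the first day of differentiation of Rex1GFPd2-Cas9 cells, in separate libraries (3 on day 0 and 3 on day 1). The study's methods describe differentiation in NDiff227, a serum-free medium, without LIF or inhibitors, for other assays on these cells, and a protocol for these libraries is not given in the sources used here. Of 13414 genes tested in both, 30.6% were higher and 31.8% lower on day 1. Among the 376 genes higher in *Nprl2* KO, 172 (45.7%, and 4.20% of all genes higher on day 1) were higher and 95 (25.3%) were lower on day 1. Among the 501 genes lower in *Nprl2* KO, 268 (53.5%, and 6.28% of all genes lower on day 1) were lower and 119 (23.8%) were higher. The Atf4 list went against this. Of its 31 rises, 25 (80.6%) were lower and 1 was higher on day 1, with *Nupr1* at a log2 fold change of -4.73, *Vldlr* at -3.01 and *Pck2* at -2.94 (edgeR adjusted p of 5.21e-10, 4.37e-06 and 6.9e-15). The gene that rose on day 1 was *Slc38a2* (1.81, edgeR adjusted p = 6.27e-09). Of the 44 lysosomal genes 39 were lower on day 1. The 75 lower genes of the stretch of chromosome 12 were split, with 27 higher and 26 lower. Outside it, 242 of 426 lower genes (56.8%) were lower on day 1.

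**Figure D5:**
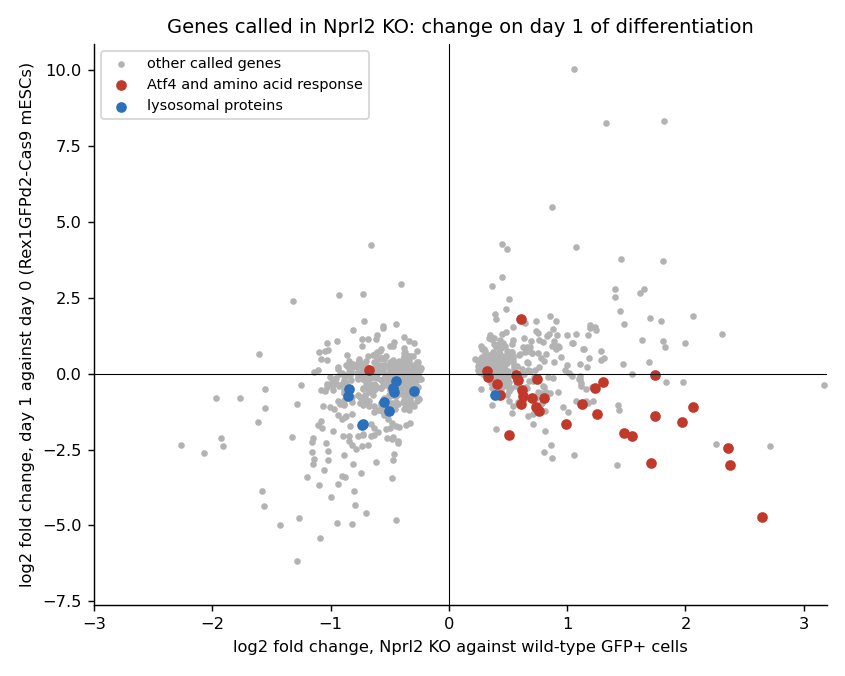
Log2 fold change on day 1 against day 0 of differentiation (vertical) and in *Nprl2* KO against wild-type GFP+ cells (horizontal), for 874 of the 877 called genes tested in both, 3 lying beyond the horizontal range. Most genes of the Atf4 list (red) lie right of and below 0, and the called lysosomal genes (blue) lie below 0 on day 1.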

How the data were processed

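Polyadenylated RNA of sorted GFP+ mESCs was sequenced by the authors as stranded paired-end libraries, and kallisto 0.42.1 was run against mouse transcripts (build mm10 per the labels). The deposited estimated counts per transcript were summed per gene and rounded. The deposited TPM values, scaled by the authors for length and depth, were used in 1 alternative only, as log2(TPM + 1). Counts of 6 GFP+ libraries (wild-type, *Nprl2* KO and *Tsc2* KO, 2 each) were fitted together with edgeR 4.0.16 (TMM, filterByExpr, robust quasi-likelihood test), limma 3.58.1 and R 4.3.3, with an adjusted p under 0.05 as the threshold. SE is the log2 fold change over the root of the F statistic. Rows without a gene held 1.65% to 2.00% of counts and were left out. Counts were simulated with 200 of 13725 genes changed, drawn from genes with a mean over 2 CPM. The test recovered 64.5%, 87% and 98.5% of changes of 1.5-, 2- and 4-fold, with 7, 9 and 20 false calls. The simulated spread followed the fitted trend, so these rates do not cover genes of lower level or of larger spread. The same model was fitted to the 12 libraries of days 0 to 3. Alternatives were DESeq2 1.42.0, other scaling, filters, samples and offsets, a replicate block and leaving out each library. Genes were named by rule: *Nprl2*, Gator1 and neighbours, the 12 largest changes in each direction (mean log2 CPM of at least 1), and per list up to 8 called and 3 abundant uncalled members, with exceptions stated. The members and lists were chosen with earlier results of these data known.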

Additional observations from a re-analysis of the deposited data

How the results depend on the processing

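No result of the 383 named genes reversed. Of their 4553 values under the alternatives, 3975 stayed on the same side of the threshold, 458 lost the call and 120 gained it. The 883 calls became 1667 (735 higher, 932 lower) without a filter on low counts, 690 with limma on TPM, and DESeq2 called 683, of which 250 higher. Leaving out 1 library gave 339 to 548 calls, 150 to 200 higher and 189 to 355 lower. Among the lists, higher amino acid transporters numbered 6 with limma and 5 to 8 with 1 library left out. Higher p53 targets numbered 16 without the filter and 3 to 9 with a library left out. Higher proteasome genes numbered 7 with DESeq2, 7 with only the wild-type and *Nprl2* KO libraries and 2 to 6 with a library left out. Lower lysosomal genes numbered 18 without the filter and 5 to 10 with a library left out. The median of the end of chromosome 12 was -0.66 with limma and -0.75 to -0.70 with a library left out. The 4692 calls between the KOs were 3317 with DESeq2 and 2974 to 3616 with a library left out, the lowest without *Tsc2* KO replicate 2. Offsets for effective length gave 992 calls. Chosen after seeing the data were the comparison of the KOs and the stretch of chromosome 12. In the fit that adds the replicate number as a block, calls numbered 2072 (948 higher, 1124 lower), with 19 p53 targets, 21 proteasome genes and 18 lysosomal genes. Same-numbered libraries correlated in their deviations at 0.0848 to 0.164, with only 2 numbers. The labels give a number and no pairing, so whether same-numbered libraries were handled together cannot be told. The block is therefore given as an alternative and not as a paired analysis. The cause of these changes was not tested, beyond the fewer samples or other genes that the alternatives hold. With 2 libraries per genotype, a change of 1.5-fold can be missed.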
